A study of Mus musculus with 4 samples.

Results

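The 40 genes described here encode the machinery of mitosis: kinesin motors, cyclins and Cdk1, spindle checkpoint and centromere proteins, mitotic kinases, anaphase factors, spindle and cytokinesis proteins, condensin subunits and the division markers Mki67 and Top2a. The genes were chosen by symbol for their role in mitosis, with earlier results of these data known, and all 40 were found among the 37310 genes of the deposited tables, each in 1 row. The RNA was that of bone marrow natural killer (NK) cells, sorted as CD3e-NK1.1+CD49b+ cells from C57BL/6 mice 6 to 8 weeks old. The control group (Ctrl) holds 2 libraries from littermates whose alleles the labels do not detail. The other group (dKO) holds 2 libraries from Gabpb1l-/-Gabpb2-/- mice, which lack the long form of Gabpb1 and Gabpb2 and thereby the GABP α2β2 tetramer. Libraries were made by Smart-seq2, which amplifies full-length cDNA, from RNA of sorted populations. The series design calls the replicates biological, and neither sex nor pooling of animals is given in the labels.

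Genes of mitosis are switched on as a cell leaves S phase and are silent in resting cells. In their promoters the DREAM complex, which keeps them off in resting cells, and the B-Myb and FoxM1 complexes that turn them on act through the cell cycle genes homology region (CHR) element, often beside CCAAT boxes bound by the factor NF-Y. NK cells in the marrow divide mainly as precursors and immature cells and slow down as they mature. GABP is an Ets-family factor in which Gabpa binds DNA and its beta subunits carry the activation domain.

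The RefSeq promoter table (build GRCm38.p6) held 34 of the 40 genes. The 250 bases before each start were searched on both strands for 3 motifs. The CHR element was searched as TTTGAA and, in a variant form, as TTCGAA. The box bound by NF-Y was searched as CCAAT, and the core of Ets-factor sites as CCGGAAG. The CHR letters were found in 17 of the 34 genes, against 15.1% of 9175 tested genes in the table. CCAAT was present in 28 of 34 (82.4%), against 40.7%. Both occurred in 15 of 34 (44.1%), against 5.92%. The Ets core was found in 8 of 34 (23.5%), against 15.5% of tested genes and 7.83% of all 27025 genes in the table. Those 8 were Aurka, Cdc20, Cenpf, Kif20b, Kif22, Kif4, Mki67 and Ncapg. Such short matches are a description of the letters and do not show that a factor binds.

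The promoters below belong to the 6 most abundant of the 15 genes with both CHR and CCAAT letters whose window had at most 30 bases in any annotated exon, and they show how these letters lie before the start. Capitals mark CHR, CCAAT and Ets core letters on either strand, so that a CCAAT box on the opposite strand reads ATTGG and the other motifs likewise appear as their reverse complements. Each sequence runs 5′ to 3′ toward its gene and ends at the base before the start. The windows are chr4:52438971-52439220 on the plus strand for Smc2, chr4:118437344-118437593 on the minus strand for Cdc20 and chr11:99024190-99024439 on the minus strand for Top2a. For Bub1b the window is chr2:118597961-118598210 and for Kif11 chr19:37376132-37376381, both on the plus strand, and for Mki67 it is chr7:135716380-135716629 on the minus strand.
Smc2 promoter: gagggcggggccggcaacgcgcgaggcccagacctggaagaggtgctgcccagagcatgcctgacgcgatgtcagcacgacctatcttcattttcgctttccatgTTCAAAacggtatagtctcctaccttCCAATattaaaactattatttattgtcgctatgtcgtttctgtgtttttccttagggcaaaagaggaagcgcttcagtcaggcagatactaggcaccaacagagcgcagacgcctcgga
Cdc20 promoter: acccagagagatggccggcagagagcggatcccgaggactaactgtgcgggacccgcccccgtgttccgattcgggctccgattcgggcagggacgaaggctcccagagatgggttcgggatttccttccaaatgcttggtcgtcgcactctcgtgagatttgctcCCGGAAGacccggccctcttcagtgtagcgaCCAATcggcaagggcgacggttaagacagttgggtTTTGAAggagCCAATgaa
Top2a promoter: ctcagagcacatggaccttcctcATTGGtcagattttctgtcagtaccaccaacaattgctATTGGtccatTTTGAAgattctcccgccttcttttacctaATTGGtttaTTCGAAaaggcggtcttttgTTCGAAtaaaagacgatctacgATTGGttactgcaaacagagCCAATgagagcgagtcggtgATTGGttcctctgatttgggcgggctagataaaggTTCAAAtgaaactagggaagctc
Bub1b promoter: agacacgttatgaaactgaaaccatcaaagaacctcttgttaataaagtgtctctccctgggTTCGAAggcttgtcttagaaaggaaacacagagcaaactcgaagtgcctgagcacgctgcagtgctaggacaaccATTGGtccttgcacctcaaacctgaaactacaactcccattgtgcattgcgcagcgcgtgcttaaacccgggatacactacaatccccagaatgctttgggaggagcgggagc
Kif11 promoter: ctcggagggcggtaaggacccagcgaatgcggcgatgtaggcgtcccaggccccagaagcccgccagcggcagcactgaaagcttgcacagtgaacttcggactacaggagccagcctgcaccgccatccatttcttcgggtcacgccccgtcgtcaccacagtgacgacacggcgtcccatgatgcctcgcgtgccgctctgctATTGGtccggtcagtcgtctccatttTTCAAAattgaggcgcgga
Mki67 promoter: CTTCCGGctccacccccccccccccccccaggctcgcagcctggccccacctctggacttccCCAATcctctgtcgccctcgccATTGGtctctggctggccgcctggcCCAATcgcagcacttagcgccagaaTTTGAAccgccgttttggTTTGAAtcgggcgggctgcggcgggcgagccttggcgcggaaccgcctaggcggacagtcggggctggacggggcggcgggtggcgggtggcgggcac
In Cdc20 the CHR letters begin 18 bases before the start, the CCAAT boxes 53 and 8 bases before it, and the Ets core 84 bases before it. Kif11 has the same pair of CHR and CCAAT letters at 19 and 45 bases. In Mki67 the Ets core opens the window, 250 bases before the start, and 2 CHR matches begin 116 and 98 bases before it. Genes with the CHR letters had a median log2 fold change of -0.83 (17 genes), and the other 17 genes had -0.62. For the Ets core these medians were -0.66 with it (8 genes) and -0.81 without (26 genes). Neither difference was tested, since these genes come from the same libraries.

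Gene counts summed to between 30233870 and 34724516 per library, and 15921 to 19450 genes had at least 1 count. The targeted gene Gabpb2 had 1244 and 1009 counts in Ctrl against 85 and 86 counts in dKO. Gabpb1, whose rows do not separate the deleted long form from the short one, was at 57.1 and 52.0 CPM in Ctrl against 81.2 and 79.4 CPM in dKO. Sex-linked transcripts separated the groups: Xist had 6066 and 6430 counts in Ctrl and 2 and 9 in dKO, and 4 Y-linked genes summed to 0 and 0 in Ctrl and 13377 and 11940 in dKO. Genotype and sex thus cannot be told apart in any difference below, including that of the X-linked gene Kif4. Levels are counts scaled to a common total (CPM) by TMM library sizes, and differences are log2 fold changes of dKO minus Ctrl from the quasi-likelihood test of edgeR, with their standard error (SE) and Benjamini-Hochberg adjusted p over 13904 tested genes.

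The mitosis genes were lower in the dKO cells in their fitted direction without exception, but no single gene passed the test. The sign was negative for all 40, against 48.4% of all tested genes. Their median log2 fold change was -0.80, against 0.01 over all tested genes. None of the 40 passed at an adjusted p of 0.05 (edgeR; lowest adjusted p = 0.172, Racgap1), where 0.295% of all tested genes passed as lower and 0.611% in either direction. At an unadjusted p under 0.05, 17 of the 40 were lower, against 5.34% of all tested genes. Both dKO libraries lay below both Ctrl libraries for 24 of the 40 genes, against 19.9% of all tested genes, and none lay above. A log2 fold change of -1 or less was seen for 6 genes, against 4.84% of all tested genes. DESeq2 called 7 genes as lower (Aurkb, Ccnb1, Ect2, Kif11, Kif20a, Mki67 and Racgap1), against 1.55% of the genes it tested. Without the filter on low counts edgeR called 18 as lower, against 1.3%, and these held all 7 of the DESeq2 calls. These genes share cells and libraries, so their common sign is not 40 separate observations.

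Libraries of 1 group differed from each other about as much as the groups did. From highest to lowest, 23 of the 40 genes had the order Ctrl 1, Ctrl 2, dKO 2, dKO 1, and 13 had the order Ctrl 1, dKO 2, Ctrl 2, dKO 1. The lowest value was in dKO 1 for 38 genes and the highest in Ctrl 1 for 37. Between the dKO libraries, 39 of 40 genes were lower in dKO 1 than in dKO 2, with a median log2 ratio of -0.87. Between the Ctrl libraries, 37 of 40 were higher in Ctrl 1, with a median log2 ratio of 0.52. Over all tested genes both medians were 0.00. The nearest libraries across groups were dKO 2 and Ctrl 2, where 26 of 40 genes were lower in dKO 2 and the median log2 ratio was -0.12. The farthest were dKO 1 and Ctrl 1, with a median of -1.62. Without dKO replicate 1 the median log2 fold change of the 40 genes was -0.35, and without dKO replicate 2 it was -1.38. Without dKO replicate 1, 37 of the 40 had a negative sign. Aurkb was called lower without Ctrl replicate 2, where 0.628% of all tested genes were, and Kif11 and Top2a were without dKO replicate 2, where 0.366% were. No mitosis gene was called without Ctrl replicate 1 (0.301% of all tested genes), without dKO replicate 1 (0.216%), with RLE scaling (0.309%), with a minimum count of 50 (0.649%), with RSEM counts (0.469%) or with the replicate block (0.374%). In sorted populations fewer dividing cells and less of each RNA per dividing cell cannot be told apart.

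**Figure D1:**
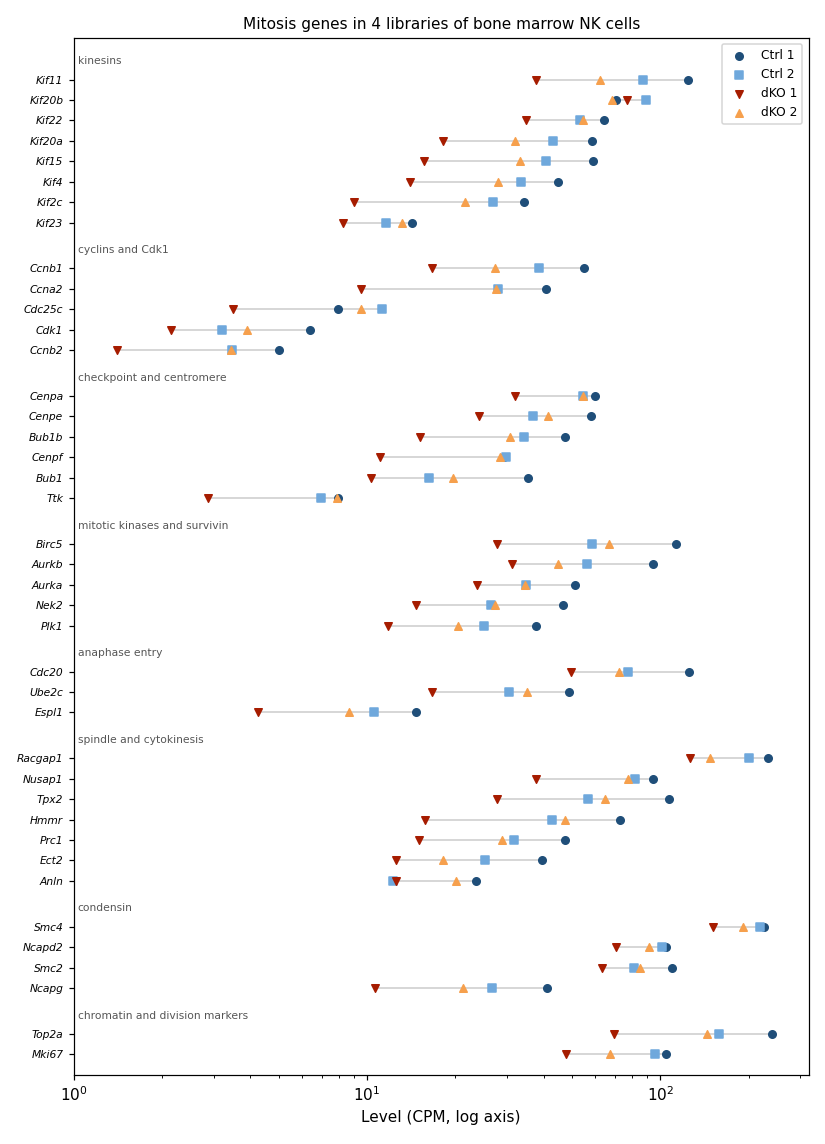
Level of each of the 40 mitosis genes (CPM, log axis) in the 2 Ctrl and 2 dKO libraries, 1 symbol per library, grouped by class with a grey line over the range. The lowest symbol is dKO 1 for 38 genes and the highest is Ctrl 1 for 37, and dKO 2 lies close to Ctrl 2 for many genes.

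Kinesins are motors that walk along or take apart microtubules, and 5 of the 8 measured here had both dKO libraries below both Ctrl libraries, against 19.9% of all tested genes. Kif11 (Eg5), the motor that pushes the spindle poles apart, was at 124 and 87.1 CPM in Ctrl against 37.7 and 62.4 CPM in dKO. Its log2 fold change was -1.08 (SE 0.28, edgeR adjusted p = 0.192). Kif15, which can back up Kif11 in bipolar spindles, was at 59.0 and 40.6 CPM in Ctrl against 15.7 and 33.3 CPM in dKO. The groups did not overlap for either gene, and dKO 1 was the lowest library for both. Kif20a (MKLP2), a motor of the central spindle that carries the passenger complex, was at 58.6 and 42.9 CPM in Ctrl against 18.1 and 32.0 CPM in dKO. Its log2 fold change was -1.02 (SE 0.30, edgeR adjusted p = 0.261). The chromosome motor gene Kif4 was at 44.9 and 33.5 CPM in Ctrl against 14.0 and 28.0 CPM in dKO. These 2 genes had the same order of libraries as Kif11. Kif2c (MCAK), which takes microtubules apart at centromeres, was at 34.3 and 26.8 CPM in Ctrl against 8.99 and 21.6 CPM in dKO.

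The remaining 3 kinesins overlapped between groups. Kif22, a motor on chromosome arms, was at 64.3 and 53.1 CPM in Ctrl against 34.8 and 54.3 CPM in dKO. Kif23 (MKLP1), which forms the centralspindlin complex with Racgap1, was at 14.2 and 11.6 CPM in Ctrl against 8.25 and 13.1 CPM in dKO. In both, dKO 2 lay between the Ctrl libraries. Kif20b, a motor that acts late in cytokinesis, was at 70.6 and 89.0 CPM in Ctrl against 77.1 and 68.4 CPM in dKO. It was the only one of the 40 genes whose level was higher in dKO 1 than in dKO 2, and its log2 fold change was -0.13 (95% interval -0.56 to 0.30). The class median was -0.95, and it ran from -1.48 without dKO replicate 2 to -0.49 without dKO replicate 1.

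The B-type cyclins bind Cdk1 to drive entry into mitosis, cyclin A2 acts in S phase and G2, and the phosphatase Cdc25c activates Cdk1. Ccnb1, which encodes cyclin B1, was at 54.8 and 38.5 CPM in Ctrl against 16.6 and 27.2 CPM in dKO. Its groups did not overlap, and its log2 fold change of -1.09 (SE 0.29, edgeR adjusted p = 0.210) was about that of Ncapg and Ect2. Ccna2 was at 40.9 and 28.0 CPM in Ctrl against 9.55 and 27.5 CPM in dKO, so that dKO 2 nearly equalled Ctrl 2. Cdc25c was at 7.96 and 11.2 CPM in Ctrl against 3.49 and 9.53 CPM in dKO, with dKO 2 between the Ctrl libraries. Ccnb2 and Cdk1 were the only members with a mean under 5 CPM, and their libraries ranged from 1.40 to 4.99 and from 2.15 to 6.37 CPM. The class median was -0.81, and it ran from -1.49 without dKO replicate 2 to -0.30 without dKO replicate 1. Ccna2 had 1.07 whole-number counts per RSEM expected count over the 4 libraries, against a library median of 2.05 to 2.07 over genes, and Kif20a had 1.43. The whole-number counts of these 2 genes are therefore short of reads relative to RSEM, although their log2 fold changes with RSEM counts were close (-0.85 and -1.03). Cdc25c and Ccnb2 lay on the other side of the library median, with 2.74 and 2.42 counts per expected count. Their log2 fold changes moved more, from -0.56 to -0.75 for Cdc25c and from -0.81 to -0.94 for Ccnb2 with RSEM counts.

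The spindle checkpoint holds back anaphase until every chromosome is attached, and its kinases Bub1 and Ttk (Mps1) and the kinase-like protein Bub1b (BubR1) act at kinetochores. Bub1b was at 47.2 and 34.2 CPM in Ctrl against 15.1 and 30.7 CPM in dKO, with a log2 fold change of -0.83 (SE 0.34, edgeR adjusted p = 0.439). Bub1 was at 35.3 and 16.2 CPM in Ctrl against 10.3 and 19.6 CPM in dKO. Ttk was at 7.96 and 6.96 CPM in Ctrl against 2.86 and 7.88 CPM in dKO. For Bub1 and Ttk dKO 2 lay between the Ctrl libraries, and only the Bub1b groups did not overlap. On the length-scaled TPM scale Bub1b did overlap, at 25.2 and 24.6 TPM in Ctrl and 17.4 and 35.8 TPM in dKO.

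All 3 centromere genes were lowest in dKO 1. Cenpa, the histone H3 variant that marks centromeres, was at 60.0 and 54.3 CPM in Ctrl against 31.9 and 54.6 CPM in dKO. Cenpe, a kinetochore motor that aligns chromosomes, was at 58.1 and 36.8 CPM in Ctrl against 24.1 and 41.3 CPM in dKO. Cenpf, a large kinetochore protein made in G2, was at 29.3 and 29.9 CPM in Ctrl against 11.0 and 28.5 CPM in dKO. The groups of Cenpf did not overlap, but dKO 2 lay close to both Ctrl libraries. Over the 6 checkpoint and centromere genes the median log2 fold change was -0.56, and it ran from -1.35 without dKO replicate 2 to -0.13 without dKO replicate 1.

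Polo-like kinase 1, the Aurora kinases and Nek2 time centrosome separation, spindle assembly and chromosome attachment, and survivin (Birc5) belongs with Aurora B to the chromosomal passenger complex. Aurkb was at 94.4 and 56.3 CPM in Ctrl against 31.2 and 44.7 CPM in dKO, with a log2 fold change of -0.99 (SE 0.29, edgeR adjusted p = 0.253). Plk1 was at 37.6 and 25.0 CPM in Ctrl against 11.8 and 20.5 CPM in dKO. Both genes had separated groups. Aurka, the kinase of the spindle poles, was at 51.0 and 34.7 CPM in Ctrl against 23.6 and 34.5 CPM in dKO, so that dKO 2 and Ctrl 2 were nearly equal. The centrosome kinase gene Nek2 was at 46.7 and 26.5 CPM in Ctrl against 14.7 and 27.2 CPM in dKO. Birc5 was at 113 and 58.4 CPM in Ctrl against 27.6 and 66.7 CPM in dKO, and its log2 fold change was -0.86 with an interval from -1.85 to 0.12. For Nek2 and Birc5 dKO 2 exceeded Ctrl 2, and Ctrl 1 was well above all other libraries. The class median was -0.86. It was -0.34 without Ctrl replicate 1, -0.43 without dKO replicate 1 and -1.32 without dKO replicate 2.

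Anaphase starts when Cdc20 activates the anaphase-promoting complex, the ubiquitin-conjugating enzyme Ube2c serves that complex, and separase (Espl1) cuts cohesin. Cdc20 was at 125 and 77.7 CPM in Ctrl against 49.7 and 72.4 CPM in dKO, with a log2 fold change of -0.73 (SE 0.27, edgeR adjusted p = 0.396). Espl1 was at 14.6 and 10.5 CPM in Ctrl against 4.23 and 8.64 CPM in dKO. Ube2c was at 48.8 and 30.5 CPM in Ctrl against 16.6 and 35.0 CPM in dKO. The groups were separate for Cdc20 and Espl1 and overlapped for Ube2c. The median of the 3 genes was -0.73. It was -0.35 without Ctrl replicate 1, -0.49 without dKO replicate 1 and -1.25 without dKO replicate 2.

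Racgap1, the GTPase-activating partner of Kif23 at the central spindle, had the smallest SE of the 7 spindle and cytokinesis genes. It was at 233 and 200.2 CPM in Ctrl against 126 and 147 CPM in dKO. Its groups did not overlap, its libraries differed little within a group, and its log2 fold change was -0.66 (SE 0.17, 95% interval -1.05 to -0.28, edgeR adjusted p = 0.172). Leaving out each library in turn gave values from -0.78 to -0.55. Ect2, the exchange factor that Racgap1 recruits to activate RhoA at the cleavage site, was at 39.5 and 25.3 CPM in Ctrl against 12.5 and 18.1 CPM in dKO. Its log2 fold change was -1.08 (SE 0.30, edgeR adjusted p = 0.220). Prc1, which bundles the microtubules of the central spindle, was at 47.4 and 31.7 CPM in Ctrl against 15.0 and 28.8 CPM in dKO. The groups of Ect2 and Prc1 did not overlap either.

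Among the spindle assembly genes, Nusap1, a microtubule binder near chromosomes, was at 94.3 and 82.0 CPM in Ctrl against 37.6 and 77.4 CPM in dKO. Tpx2, the activator of Aurora A, was at 107 and 56.8 CPM in Ctrl against 27.7 and 64.9 CPM in dKO. Hmmr, a spindle pole protein, was at 72.8 and 42.8 CPM in Ctrl against 15.8 and 47.2 CPM in dKO. All 3 had their lowest value in dKO 1, and Tpx2 and Hmmr exceeded Ctrl 2 in dKO 2. Anln (anillin), a scaffold of the contractile ring, was at 23.6 and 12.2 CPM in Ctrl against 12.6 and 20.0 CPM in dKO. Anln did not follow the other genes: its lowest library was Ctrl 2, and its log2 fold change was -0.14 with an interval from -0.98 to 0.71. The class median was -0.82, and it ran from -1.38 without dKO replicate 2 to -0.34 without dKO replicate 1.

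Condensin compacts chromosomes, with Smc2 and Smc4 as the shared ATPase core and Ncapg and Ncapd2 as subunits of condensin I. Ncapg was at 41.1 and 26.8 CPM in Ctrl against 10.6 and 21.3 CPM in dKO, and its log2 fold change was -1.09 (SE 0.36, edgeR adjusted p = 0.317). Smc4 was at 225 and 219 CPM in Ctrl against 151 and 191 CPM in dKO. Ncapd2 was at 105 and 101 CPM in Ctrl against 70.4 and 91.5 CPM in dKO. Both of these groups were separate by small margins. Smc2 was at 109 and 81.2 CPM in Ctrl against 63.1 and 85.1 CPM in dKO, which overlapped. The log2 fold changes of Smc4, Smc2 and Ncapd2 lay between -0.38 and -0.35. The class median was -0.37, and it ran from -0.57 without dKO replicate 2 to -0.19 without dKO replicate 1. Whether classes differ was not tested, since their genes come from the same libraries.

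Mki67, the proliferation marker that coats mitotic chromosomes, was at 104 and 95.6 CPM in Ctrl against 47.6 and 67.4 CPM in dKO. Its groups were separate and its Ctrl libraries close, and its log2 fold change was -0.80 (SE 0.21, 95% interval -1.28 to -0.32, edgeR adjusted p = 0.198). Top2a, the topoisomerase that untangles sister chromatids, was at 241 and 159 CPM in Ctrl against 69.2 and 144 CPM in dKO. Its groups were also separate, though dKO 2 was nearer to Ctrl 2 than to dKO 1, and its log2 fold change was -0.91 (SE 0.34, edgeR adjusted p = 0.396). The median of both genes was -0.85, and it was -0.52 without dKO replicate 1 and -1.30 without dKO replicate 2. On GRCm38 (GENCODE release M21) Mki67 lies on chromosome 7 from 135689784 to 135716361, Top2a on chromosome 11 from 98992943 to 99024189 and Racgap1 on chromosome 15 from 99620496 to 99651656. The 40 genes are spread over 15 chromosomes, with at most 6 on 1 of them (chromosome 2).

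**Figure D2:**
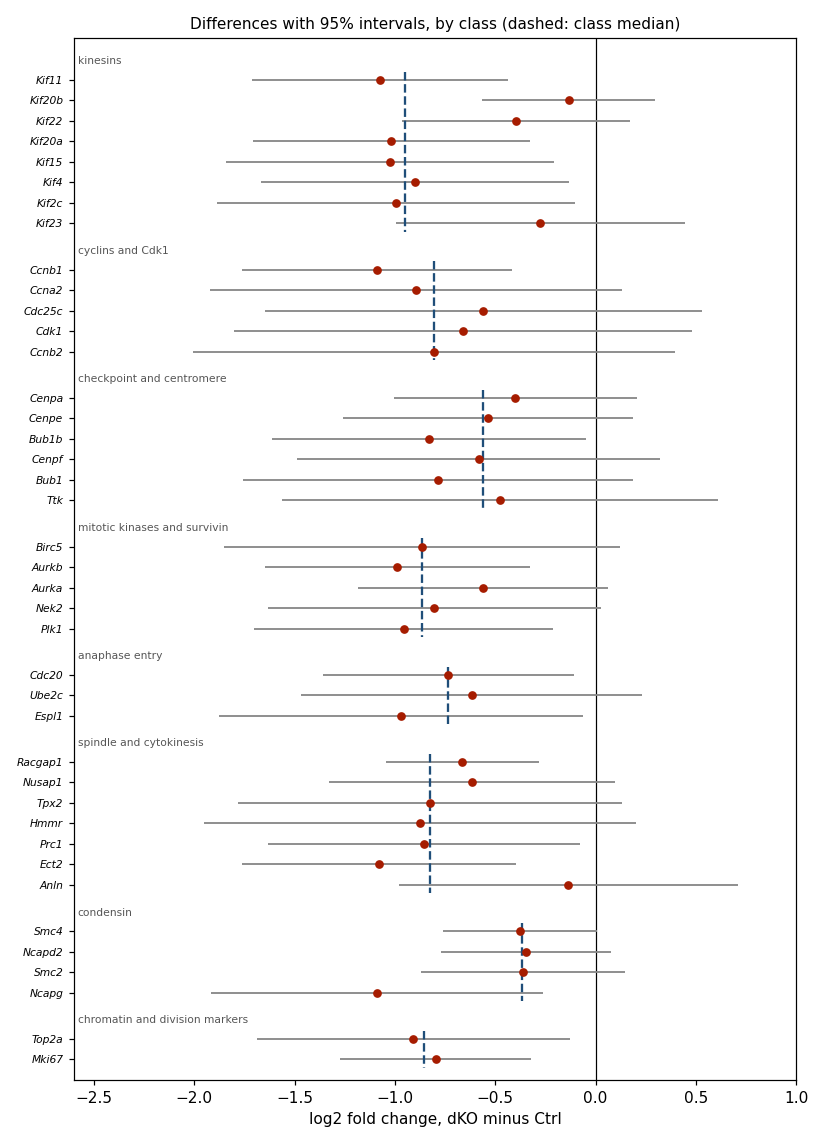
Log2 fold change of dKO minus Ctrl for the 40 mitosis genes (points) with 95% intervals of the edgeR fit (lines), grouped by class. All points lie below 0, 17 intervals do not reach 0, and the class medians (dashed) run from -0.95 for kinesins to -0.37 for condensin.

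Per length, the genes covered a wide range of levels in Ctrl cells. Racgap1 was the most abundant at 289.8 ± 27.7 TPM (SD, n = 2). Birc5 (196 ± 79.7 TPM), Smc4 (190.3 ± 15.1 TPM) and Smc2 (159.5 ± 38.3 TPM) followed, and their Ctrl libraries overlapped, so their order is not fixed. Cdc20 came next at 118 ± 31.2 TPM. At the other end Espl1 was at 2.83 ± 0.580 TPM, Ttk at 3.92 ± 0.0212 TPM and Ccnb2 at 4.35 ± 0.962 TPM. Mki67 was at 15.0 ± 0.354 TPM. The median over the 40 genes was 25.6 TPM in Ctrl and 15.8 TPM in dKO, against 12.5 TPM in each group over all tested genes. On the TPM scale 29 of the 40 genes had both dKO libraries below both Ctrl libraries, against 18.3% of all tested genes. Kif22, Cdc25c, Cenpa, Nek2, Tpx2 and Smc2 were separated in TPM but not in CPM, and Bub1b in CPM but not in TPM. In TPM dKO 2 was below Ctrl 2 for Nek2 (13.3 against 18.2) and Tpx2 (27.9 against 29.4), unlike in CPM. Summed, the 40 genes reached 2169 and 1684 TPM in Ctrl and 1031 and 1429 TPM in dKO.

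Other genes of the mitotic pathway, from lists chosen with earlier results of these data known, gave no call in edgeR. Of 30 other spindle and cytokinesis genes 28 were negative (median log2 fold change -0.64). Kif18b, a motor that shortens microtubules (-1.32, SE 0.32, adjusted p = 0.156), and Iqgap3 (-1.57, SE 0.40, adjusted p = 0.179) ranked first by p in that list. Of 34 other kinetochore and checkpoint genes 27 were negative (median -0.36), led by Kntc1 (-1.34, SE 0.46, adjusted p = 0.344) and Casc5, the kinetochore scaffold gene Knl1 (-0.68, SE 0.24, adjusted p = 0.377). Of 19 other condensin and cohesin genes 17 were negative (median -0.25), and the smallest p belonged to condensin subunits, Ncapg2 (-1.07, SE 0.26, adjusted p = 0.162) and Ncaph (-0.96, SE 0.30, adjusted p = 0.290). At an unadjusted p under 0.05 these lists held 12 of 30, 6 of 34 and 2 of 19 genes, all of them lower in dKO, against 5.34% lower and 10.6% in either direction over all tested genes. The share in the condensin and cohesin list was thus near that of all tested genes in either direction.

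Subunits and helpers of the anaphase-promoting complex had a median of -0.09 (11 of 16 negative, none called by edgeR, 1 at an unadjusted p under 0.05, against 10.6% of all tested genes). There the smallest p belonged to Fzr1 (Cdh1), the activator of that complex in G1, with a log2 fold change of 0.98 (SE 0.29, edgeR adjusted p = 0.261), and Cdc16 followed (0.35, SE 0.16, adjusted p = 0.514). Regulators of mitotic transcription had a median of -0.19 (16 of 23 negative, none called). At an unadjusted p under 0.05 there were 4 of the 23, 3 of them lower. Over all tested genes these shares were 10.6% in either direction and 5.34% lower. E2f5, a repressor E2F, was at 3.91 and 7.05 CPM in Ctrl against 16.0 and 14.3 CPM in dKO. Its groups were separate, with a log2 fold change of 1.47 (SE 0.35, edgeR adjusted p = 0.155). The activator E2f2 had -0.76 (SE 0.28, adjusted p = 0.377). Cyclins, kinases and inhibitors of G1 had a median of -0.35 (16 of 22 tested negative, none called). At an unadjusted p under 0.05 there were 7 of the 22, 6 of them lower, against 10.6% of all tested genes in either direction and 5.34% lower. Cdk2 (-1.19, SE 0.21, edgeR adjusted p = 0.0618) and Ccne2 (-1.35, SE 0.31, edgeR adjusted p = 0.149) ranked first by p.

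DNA replication genes, which act just before mitosis, were also negative in 41 of 42 cases with a median of -0.51. Only Tyms fell (-2.35, SE 0.36, edgeR adjusted p = 0.0379), where 0.295% of all tested genes were called as lower. Of the 42 genes 20 had an unadjusted p under 0.05 in edgeR, 19 of them lower. Over all tested genes these shares were 10.6% in either direction and 5.34% lower. The 1 positive gene was among the 20. The spread of the replication genes over libraries was not that of the mitosis genes. Between the dKO libraries the median log2 ratio of dKO 1 to dKO 2 was -0.24 for replication genes and -0.87 for mitosis genes. Between the Ctrl libraries the ratios of Ctrl 1 to Ctrl 2 were alike, 0.49 and 0.52. Of dKO 2 against Ctrl 2, replication genes had -0.20 and mitosis genes -0.12. These ratios compare single libraries, and the difference between the lists was not tested.

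**Figure D3:**
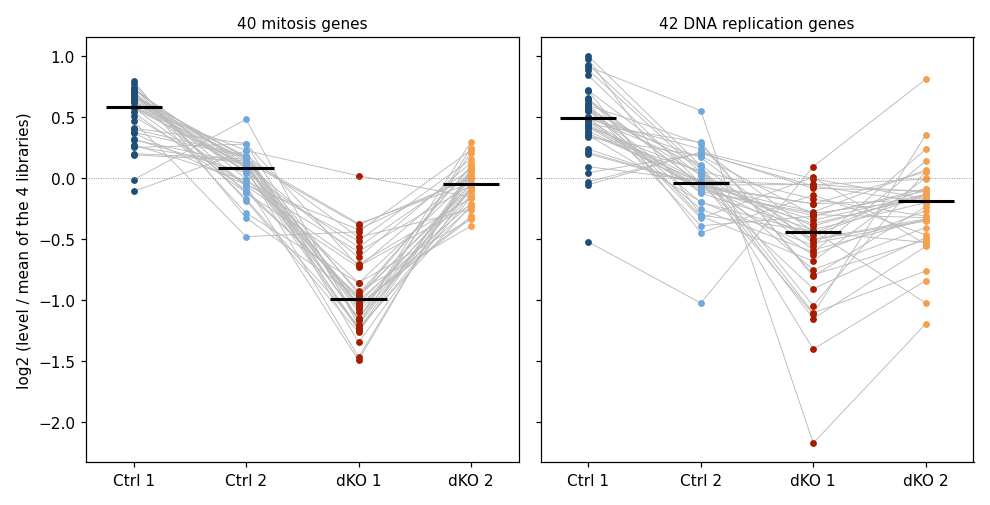
Level of each gene in each library relative to its mean over the 4 libraries (log2), for 40 mitosis genes and 42 DNA replication genes. Grey lines join the values of 1 gene and black bars are medians; the mitosis genes lie lowest in dKO 1, with a median log2 ratio of -0.87 of dKO 1 to dKO 2 against -0.24 for replication genes.

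Markers of the cells in the sort were read beside the mitosis genes, whose summed level was 2798 and 2100.2 CPM in Ctrl against 1182 and 1881 CPM in dKO. The 12 NK markers, with Ncr1 (NKp46) and Klrb1c (NK1.1) as defining genes, summed to 18400 and 18256 CPM in Ctrl against 15187 and 15174 CPM in dKO, so both groups carried the labelled cell type. The 7 markers of granulocyte precursors, which divide in the marrow, summed to 527 and 172 CPM in Ctrl against 96.8 and 94.0 CPM in dKO. The list was not uniform: its sum is mostly Mpo and Elane, 6 of 7 genes had a negative log2 fold change, Fcnb was higher in Ctrl 2 than in Ctrl 1, and Cebpe was highest in dKO 2. Of the defining genes, Mpo was at 348 and 104 CPM in Ctrl against 59.7 and 55.5 CPM in dKO, and Elane at 106 and 39.4 and at 20.9 and 15.7 CPM. Their sum was highest in Ctrl 1, as for the mitosis genes, but it did not differ between dKO 1 and dKO 2 as those did. The 7 markers of mature neutrophils (defining genes S100a8 and S100a9) summed to 1693 and 2679 CPM in Ctrl against 1308 and 2182 CPM in dKO, and the 9 erythroid markers (defining genes Klf1 and Gata1) to 343 and 482 CPM and to 281 and 445 CPM. These 2 lists were lowest in dKO 1 but second lowest in Ctrl 1. The 9 markers of B cell precursors (defining genes Vpreb1 and Vpreb3) summed to 97.8 and 214 CPM in Ctrl against 90.9 and 115 CPM in dKO.

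T cell markers also moved with the groups, though not all of them. The 8 genes summed to 284 and 301 CPM in Ctrl against 130 and 135 CPM in dKO. Both dKO libraries lay below both Ctrl libraries for 6 of them, against 19.9% of all tested genes. Lat and Cd4 overlapped. Lat was at 72.2 and 79.2 CPM in Ctrl against 83.1 and 58.9 CPM in dKO, a large part of each dKO sum. Of the 8 genes 2 fell, against 0.295% of all tested genes: Cd3e (-2.24, edgeR adjusted p = 0.00790) and Trac (-1.90, edgeR adjusted p = 0.0207). The sort was gated on absence of CD3e protein. The 6 stem and progenitor markers (defining genes Kit and Cd34) summed to 85.9 and 116 CPM in Ctrl, with both dKO libraries between these values. The 6 of monocytes and macrophages (defining genes Csf1r and Cd14) summed to 1554 to 1738 CPM in Ctrl and 1301 to 1767 CPM in dKO. That sum is mostly Lyz2 (1168 and 1338 CPM in Ctrl against 1160 and 1527 CPM in dKO). Of the 6 genes 3 were negative and 3 positive. Ly6c2 was at 347 and 349 CPM in Ctrl against 104 and 187 CPM in dKO (-1.26, edgeR adjusted p = 0.0994). None of the 64 marker genes was at 0 in every library. The part of any of these cells in the levels of the mitosis genes was not tested.

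**Figure D4:**
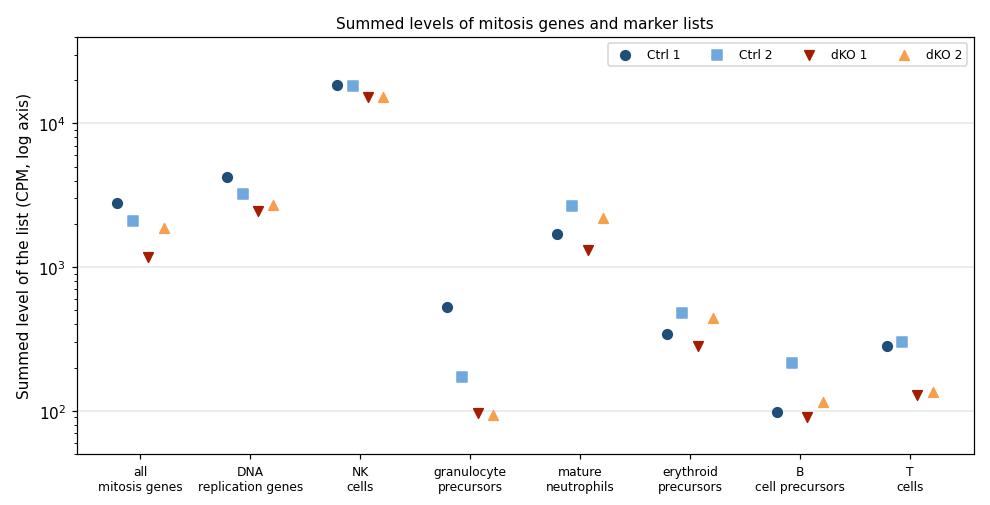
Summed level (CPM, log axis) of the 40 mitosis genes, the 42 DNA replication genes and 6 marker lists, 1 symbol per library. Mitosis genes run from 1182 CPM in dKO 1 to 2798 CPM in Ctrl 1, while granulocyte precursor markers run from 94.0 CPM in dKO 2 to 527 CPM in Ctrl 1.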

How the data were processed

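RNA of 2 Ctrl and 2 dKO samples was sequenced. The tools HTSeq 0.6.1, RSEM 1.3.0, TopHat2 2.1.1, Trimmomatic 0.36, FastQC 0.11.5 and DESeq2 1.32.0 and the build mm9 come from the submitters' processing notes. Parameters, annotation and strand setting were not given in these sources, so overlapping and antisense genes are uncertain. Whole-number gene counts were deposited for each sample and, per the file headers, RSEM expected counts and TPM. The median count per expected count was 2.05 to 2.07, so counting error is larger than the counts give if a fragment was counted more than 1 time. Reads given to no gene (18.1% to 24.3% outside genes, 2.20% to 2.34% ambiguous) were left out.

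Counts were tested with edgeR 4.0.16 in R 4.3.3 (robust quasi-likelihood, TMM, minimum count of 10, Benjamini-Hochberg over 13904 genes, threshold 0.05); all 40 mitosis genes passed this filter. TPM entered no test, and RSEM counts were rounded. With 2 libraries a group an exact permutation p cannot go below 0.333, and p-values measure the spread between these libraries. In simulated counts for this comparison (13904 genes, 200 changed, 5 runs) 64.2% of 2-fold and 96.6% of 4-fold changes were found, among genes of at least 5 CPM. Each simulated gene was given the spread between libraries typical of its level, without the differences in spread from gene to gene. These shares therefore describe the simulated counts and can be too high for the real ones. The median SE in the edgeR fit was 0.335 for the 40 mitosis genes and 0.273 over all tested genes. What share of such changes would be found among the mitosis genes was not tested. Members, classes and lists were chosen with earlier results of these data known. Values per library were given for members with a mean of at least 5 CPM or the smallest p of their class, and of each pathway list the called genes or the 2 with the smallest p were named. Of the pathway lists, 4 genes had no row under the symbols used. Printed promoters were further limited to 30 exon bases after the annotation was seen. DESeq2 1.42.0, RLE scaling, no filter, a minimum count of 50, RSEM counts, the replicate number as a block and leaving out each library were alternatives.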

Additional observations from a re-analysis of the deposited data

How the results depend on the processing

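All 40 log2 fold changes stayed negative with RLE scaling, no filter, a minimum count of 50, DESeq2, RSEM counts and the replicate block, with medians from -0.81 to -0.79. With 1 library left out, 37 to 40 stayed negative and the median ran from -1.38 (without dKO replicate 2) to -0.35 (without dKO replicate 1). Signs turned for Anln without Ctrl replicate 1 (0.41) or dKO replicate 1 (0.16), Kif20b without Ctrl replicate 2 (0.044), and Kif23 (0.020) and Ttk (0.078) without dKO replicate 1. With 1 library left out Anln ranged from -0.53 to 0.41, Kif20b from -0.29 to 0.044, Kif23 from -0.65 to 0.020 and Ttk from -1.38 to 0.078. Mitosis genes called numbered 0 in the edgeR fit, 7 with DESeq2, 18 with no filter, and 0 to 2 with 1 library left out: Aurkb without Ctrl replicate 2, Kif11 and Top2a without dKO replicate 2. Over all genes 85 were called, 404 with DESeq2, 559 with no filter, 147 with a minimum count of 50, and 73 to 187 with 1 library left out; the cause was not tested. The lone library of a group was then assumed to vary like the other group. With the replicate block 0 mitosis genes and 100 genes in all were called, and the median log2 fold change was -0.81. Same-numbered libraries did not deviate together over all genes (r = -0.0544 across genes). With 2 libraries a group this is 1 correlation, which cannot decide whether the numbers pair them. Depth limits the genes under 5 CPM, Ccnb2 and Cdk1, whose lowest counts were 45 and 69.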
